A study of Neurospora crassa with 18 samples.

Results

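The mRNA levels of a *cpc-1* deletion strain that carries a weakly expressed *cpc-1* transgene were compared with those of the deletion strain itself in *Neurospora crassa* mycelia treated with an inhibitor of histidine synthesis. The comparison was made between 3 libraries of *cpc-1Δ*, *cpc-1*(WT), called the transgene strain here, and 3 libraries of *cpc-1Δ*, which are 6 of the 18 mRNA-seq libraries of the study, chosen by the strain and the treatment given in their labels. Both strains were grown in minimal medium with 2% glucose and then treated with 5 mM 3-aminotriazole (3-AT) for 8 h. Both lack the endogenous *cpc-1* gene. In the transgene strain, the *cpc-1* coding sequence with a triple Flag tag stands behind the promoter and 5′ UTR of *ccg-1* at the *csr-1* locus, without the upstream open reading frames of *cpc-1*, and replaces *csr-1*. The transgene strain is a homokaryon and was not sampled without 3-AT here. The WT strain treated with 3-AT in the same way (3 libraries) serves here for levels, and *cpc-1Δ* (2 libraries) and WT (3 libraries) in 2% glucose medium without 3-AT serve to sort genes by the effect of the deletion in libraries of their own. The cultures in 0.1% glucose medium, which also held 0.17% arginine (2 libraries each of *cpc-1Δ* and WT) were used for the same purpose. By their labels, all WT libraries are of the FGSC wild type of mating type *a*, the control strain in the growth rate assay of the study. The text of the study does not give the mating type of *cpc-1Δ*. A difference in background between WT and the 2 other strains cannot be told apart from the deletion. The labels do not say that replicates were separate cultures, so that *P* values measure only the spread between these libraries.

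CPC-1 is a basic leucine zipper transcription factor and the counterpart of Gcn4 of budding yeast. When an amino acid runs short, uncharged tRNA activates the protein kinase CPC-3, the counterpart of yeast Gcn2, and the resulting slowdown of translation initiation lets ribosomes pass the upstream open reading frames of *cpc-1* mRNA and make CPC-1. CPC-1 then raises transcription of genes for many amino acids at the same time, which is called cross-pathway control. 3-AT inhibits imidazoleglycerol-phosphate dehydratase of the histidine pathway. The transgene lacks the upstream open reading frames and thus this control of translation. The cultures were kept in constant light.

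Levels are RPKM values (reads per kilobase of transcript and per unit of sequencing depth), in which the transcripts of a gene were added. The sum of RPKM over genes was 408344 to 423848 in the transgene strain and 309352 to 328418 in *cpc-1Δ*, so that the strains differed in the sum itself. Each library was therefore divided by a scaling factor, the median over genes of its ratio to the average library, which was 1.23 to 1.24 in the transgene strain, 1.04 to 1.09 in *cpc-1Δ* and 0.736 to 0.784 in WT with 3-AT. The factors of the transgene strain and WT lie farthest apart, so that levels set against WT depend most on the scaling. All levels below are RPKM values divided in this way (scaled RPKM) unless they are said to be as deposited, and all differences are differences of mean log2(scaled RPKM + 1), the transgene strain minus *cpc-1Δ*, which understate the change of genes with low levels. The threshold was an adjusted *P* of 0.05 in limma, with the Benjamini-Hochberg method over all 8688 genes tested. Of all genes tested, 2497 (28.7%) passed, of which 1456 (16.8%) were higher and 1041 (12%) lower in the transgene strain. As deposited, 2556 (29.4%) were higher and 392 (4.51%) lower, and with upper-quartile scaling 1154 (13.3%) were higher and 1526 (17.6%) lower. The balance of higher and lower genes thus depended on the scaling, and 1154 genes were higher and 385 lower in each of the 3 ways. For 4150 genes that averaged 10 scaled RPKM or more, the median difference was 0.03 after scaling, 0.24 as deposited and −0.05 with upper-quartile scaling. No gene passed in opposite directions after scaling and as deposited. Only the tables of the transgene strain hold no number for some transcripts (50 to 61), and the labels do not say whether they were made separately. A batch and the strain therefore cannot be told apart. Across the 4149 of these genes with an annotated length, Spearman's rho between length and difference was −0.14, and the part of length in the results was not tested.

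**Figure D1:**
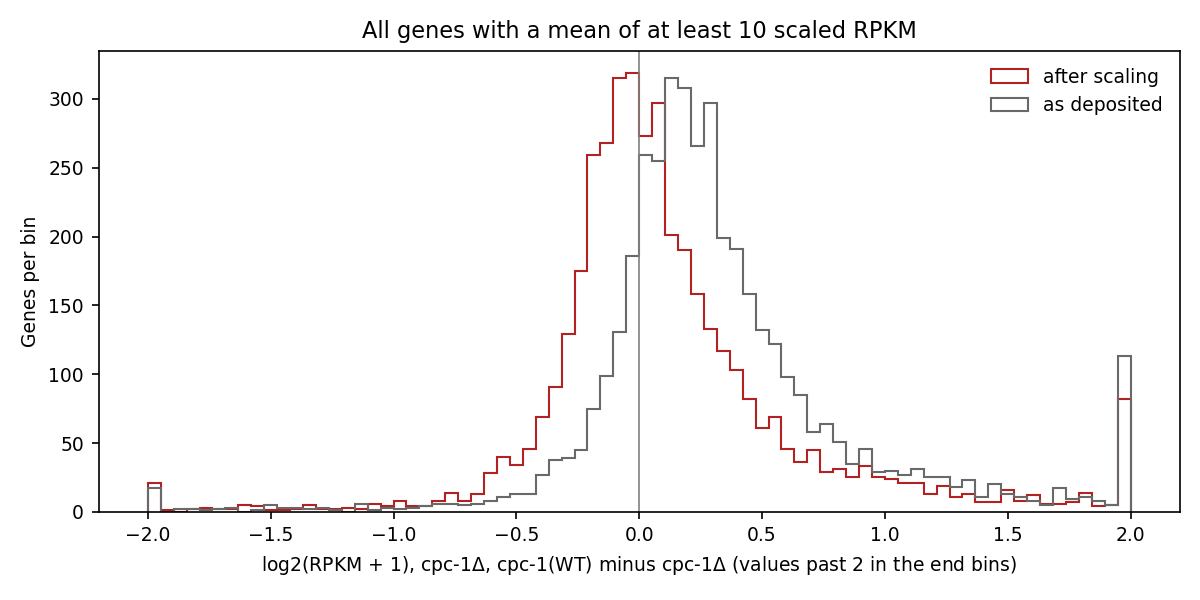
Differences of log2(RPKM + 1) between the transgene strain and *cpc-1Δ* with 3-AT for genes with a mean of at least 10 scaled RPKM, as a histogram (x axis, difference on the log2 scale, y axis, genes per bin of equal width, with values past 2 in the end bins; red, after scaling; gray, as deposited). The curve of the values as deposited lies to the right of the curve after scaling, with medians of 0.24 and 0.03, and both have a longer tail on the side of genes higher in the transgene strain.

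*cpc-1* (NCU04050) had 54.8, 63.8 and 55.4 scaled RPKM in the transgene strain, against 2.01, 2.22 and 1.96 scaled RPKM in *cpc-1Δ*. As deposited, these values were 67.2, 78.9 and 68.8 RPKM in the transgene strain, against 2.13, 2.43 and 2.03 RPKM in *cpc-1Δ*. Every library with the transgene was above every library without it, and the difference was 4.27 (standard error, 0.07; adjusted *P* = 1.5e-08). A two-sided exact permutation test gave *P* = 0.10, below which groups of 3 and 3 cannot go. The WT strain had 1483, 1519 and 1490 scaled RPKM, so that the mean of the transgene was 28.1 times that of the deletion but 3.87% of that of WT, and 6.28% as deposited. The transgene carries the 5′ UTR of *ccg-1*, so that values per annotated transcript may count unlike parts of the mRNAs, which was not tested. The study compared the strains by reads in the coding sequence alone and also reported a level much below that of WT. The mRNA level in the transgene strain thus lay between those of *cpc-1Δ* and WT and was low relative to WT, and everything described below was measured at this level of *cpc-1* mRNA. CPC-1 protein was not compared with WT here, and the transgene lacks the upstream open reading frames.

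*ccg-1* (NCU03753), the glucose-repressible gene whose promoter drives the transgene, had 941, 897 and 836 scaled RPKM in the transgene strain, against 713, 744 and 803 scaled RPKM in *cpc-1Δ*. The groups did not overlap, and the difference was 0.24 (standard error, 0.07; adjusted *P* = 0.028). This call did not hold without *cpc-1Δ* library 1 or 2 or without transgene library 1 or 2 (adjusted *P* = 0.065 to 0.096 for *ccg-1* in limma), nor with upper-quartile scaling. *cpc-1* mRNA in the transgene strain was thus far below the mRNA of the gene from which its promoter was taken. *csr-1* (NCU00726), which encodes a cyclophilin, was listed at 0 in the 3 libraries of the transgene strain and had 1089, 1122 and 1127 scaled RPKM in *cpc-1Δ*. The neighboring gene NCU00727, whose annotated span overlaps that of *csr-1* in the NC12 table, had 12.7, 14 and 14.4 scaled RPKM in the transgene strain and was listed at 0 in *cpc-1Δ* and WT. The gene on the other side of *csr-1*, NCU00725, and the genes on either side of *cpc-1*, NCU04049 and NCU04051, did not pass the threshold (differences of −0.19, 0.05 and −0.13). The construct genes thus matched the labels in all 6 libraries. The gain of the *cpc-1* transgene and the loss of *csr-1* go together in these libraries and cannot be told apart.

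The kinase gene *cpc-3* (NCU01187) had 10.4, 13 and 11.4 scaled RPKM in the transgene strain, against 6.73, 6.63 and 6.66 scaled RPKM in *cpc-1Δ*, and its mean in WT was 43.7 scaled RPKM. The groups did not overlap, and the difference was 0.71 (standard error, 0.07; adjusted *P* = 0.00028). *cpc-2* (NCU05810), which encodes a RACK1-like protein of the small ribosomal subunit, had 517, 504 and 517 scaled RPKM in the transgene strain, against 562, 581 and 562 scaled RPKM in *cpc-1Δ*. Its difference of −0.15 passed after scaling (adjusted *P* = 0.030) and was 0.07 as deposited, where it did not pass, and it did not pass with any of the 6 libraries left out, so that no direction is given for it. *β-tubulin* (NCU04054), the reference gene of the qRT-PCR assays of the study, differed by −0.03 after scaling and by 0.18 as deposited (adjusted *P* = 0.017).

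**Figure D2:**
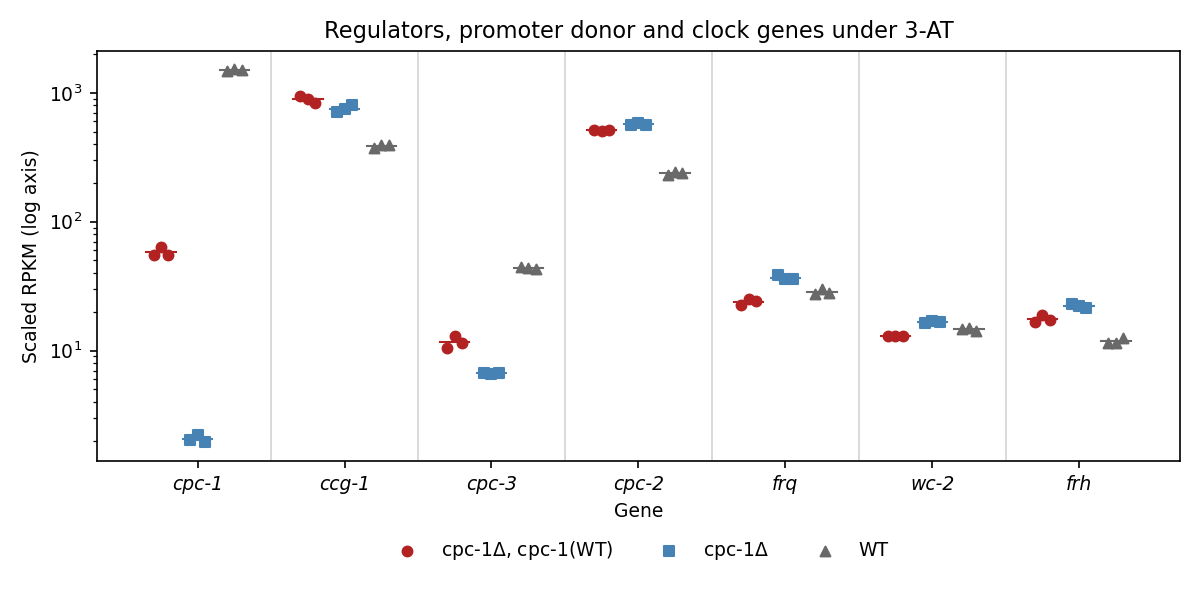
Scaled RPKM of the transgene (*cpc-1*), the donor of its promoter (*ccg-1*), *cpc-3*, *cpc-2* and the clock genes *frq*, *wc-2* and *frh* in the transgene strain, *cpc-1Δ* and WT with 3-AT (points, libraries; bars, means; log axis). *cpc-1* with the transgene lies at 54.8 to 63.8, between *cpc-1Δ* at 1.96 to 2.22 and WT at 1483 to 1519, while the other genes differ far less between the strains.

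The study followed 14 target genes of CPC-1 by qRT-PCR in these strains, of which 10 were matched by symbol to the table. The study chose this panel for the same strains, so that it is not independent evidence of a direction. With 3-AT, 9 of the 10 were higher in the transgene strain than in *cpc-1Δ*, beside 16.8% of all genes, and none was lower. The same 9 were counted as deposited. The median difference over the 10 was 1.24, beside 0.00 over all genes tested. The libraries of the 2 strains did not overlap for any of the 10 genes, but the share of all genes without overlap is not given here.

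The largest difference in the panel was that of *arg-10* (NCU08162), which encodes argininosuccinate lyase, the last step of arginine synthesis. It had 178, 204 and 170 scaled RPKM in the transgene strain, against 32.0, 36.5 and 34.6 scaled RPKM in *cpc-1Δ*, a difference of 2.38 (standard error, 0.08; adjusted *P* = 6.1e-07). *aro-7* (NCU09817), which encodes an isozyme of the enzyme that opens the shikimate pathway, had 177, 186 and 181 scaled RPKM in the transgene strain, against 43.3, 47.0 and 48.2 scaled RPKM in *cpc-1Δ*. *arg-12* (NCU01667), the gene of ornithine carbamoyltransferase, had 88.5, 87.5 and 97.4 scaled RPKM in the transgene strain, against 24.2, 30.2 and 25.6 scaled RPKM in *cpc-1Δ*. For both genes the 2 strains were far apart relative to the spread within them (differences of 1.95 and 1.74). *his-3* (NCU03139), whose product acts at several steps of histidine synthesis, the last included, had 99.6, 104 and 97.8 scaled RPKM in the transgene strain, against 43.2, 43.6 and 42.9 scaled RPKM in *cpc-1Δ* (difference, 1.20; adjusted *P* = 8.7e-07). The smallest difference in the panel was that of *ppm-3*, at 0.89.

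*trp-3* (NCU08409), which encodes tryptophan synthase, had 133, 132 and 132 scaled RPKM in the transgene strain, against 39.2, 42.5 and 37.7 scaled RPKM in *cpc-1Δ*, and is the member that did not pass (difference, 1.71; standard error, 2.09). It was listed at 0 in 1 of the 3 WT libraries, and the error of the fit is shared by the 3 strains. With only the 6 libraries compared, its standard error was 0.06 and it passed (adjusted *P* = 3.2e-05).

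**Figure D3:**
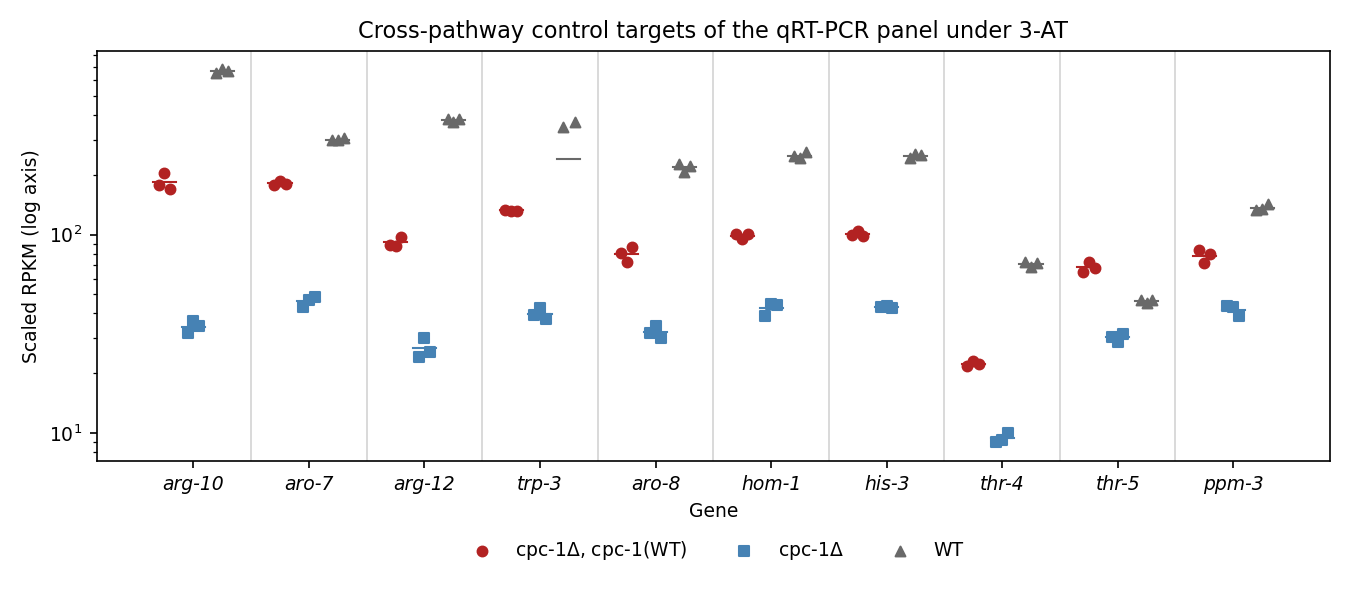
Scaled RPKM of the 10 genes of the qRT-PCR panel in the transgene strain, *cpc-1Δ* and WT with 3-AT, ordered by the difference between the first 2 strains (points, libraries; bars, means; log axis, on which the value of 0 for *trp-3* in a WT library is not drawn but counts in the mean). For every gene the 3 points of the transgene strain lie above the 3 points of *cpc-1Δ*, and for *thr-5* they also lie above those of WT.

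The WT levels place the panel on a scale. The median over its 10 genes was 39.8% of the WT mean in the transgene strain and 16% in *cpc-1Δ*. In the transgene strain, 8 of the 10 were lower than in WT and 1, *thr-5*, was higher. *thr-5* (NCU00944) had 65, 72.9 and 67.9 scaled RPKM in the transgene strain and 30.6, 28.7 and 31.6 scaled RPKM in *cpc-1Δ*, while WT had 46.7, 45.2 and 47.0 scaled RPKM. In *cpc-1Δ*, 9 were lower than in WT. The comparisons with WT share the libraries of the 2 strains with the comparison between them, and their counts are given side by side for that reason. The shares of all genes lower or higher than in WT are not given here. These parts of the WT level were computed after scaling only, with factors of 1.23 to 1.24 in the transgene strain and 0.736 to 0.784 in WT.

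Genes of amino acid synthesis were gathered by symbol in 6 lists, which hold 45 genes of the table. Of these, 31 (68.9%) were higher in the transgene strain, 2 (4.44%) were lower and 12 did not pass, beside 16.8% and 12% of all genes. The median difference was 0.85. As deposited, 33 were higher and 1 lower, with a median of 1.05, and with upper-quartile scaling 31 were higher and 4 lower, of which the arginine list and the list of serine, glycine, proline and asparagine synthesis each held 1. The median level was 40.2% of the WT mean in the transgene strain and 25.9% in *cpc-1Δ*, while over the 4087 genes with at least 10 scaled RPKM in WT the medians were 95.9% and 92.3%. Of the 45, 34 were lower than in WT in the transgene strain and 39 in *cpc-1Δ*. The shares of all genes lower than in WT are not given here, so that no excess is read from these counts. Levels relative to WT were taken after scaling only. The lists hold genes with a symbol in the NC12 table and are thus incomplete.

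The histidine list matched 4 of its 7 entries, of which 3 were higher. *his-6* (NCU07156) had 77.9, 76.1 and 79.0 scaled RPKM in the transgene strain, against 34.6, 36.8 and 35.3 scaled RPKM in *cpc-1Δ* (difference, 1.10). *his-2* (NCU09320), the gene of the first enzyme of the pathway, had 76.4, 71.4 and 78.4 scaled RPKM in the transgene strain, against 43.4, 48.1 and 40.7 scaled RPKM in *cpc-1Δ* (difference, 0.76). *his-7* (NCU00150) had 35.3, 38.9 and 34.4 scaled RPKM in the transgene strain, against 33.8, 28.7 and 34.5 scaled RPKM in *cpc-1Δ*. Its groups overlapped, and it did not pass (difference, 0.16; standard error, 0.21). *his-1*, the gene of the enzyme that 3-AT inhibits, was not matched and is not analysed here.

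In the arginine list, 9 of 11 genes were higher and none was lower. *arg-4* (NCU10468), which encodes the acetyltransferase that recycles the acetyl group of the ornithine branch, had 401, 401 and 400 scaled RPKM in the transgene strain, against 103, 105 and 103 scaled RPKM in *cpc-1Δ* (difference, 1.94). WT had a mean of 381 scaled RPKM, so that *arg-4* stood near the WT mean after scaling, unlike *arg-10* with 665 scaled RPKM in WT. As deposited, *arg-4* was above WT, with 491, 496 and 497 RPKM in the transgene strain and 281, 296 and 294 RPKM in WT. *arg-1* (NCU02639), the gene of argininosuccinate synthetase, had 207, 209 and 200 scaled RPKM in the transgene strain, against 74.9, 79.1 and 76.1 scaled RPKM in *cpc-1Δ* (difference, 1.41). *arg-5*, which encodes acetylornithine aminotransferase, differed by 0.95, *arg-14*, for acetylglutamate synthase, by 0.51 and *arg-6*, for the acetylglutamate kinase and reductase that follow, by 0.53. *arg-2* (NCU07732), the small subunit of the arginine-specific carbamoyl-phosphate synthetase, whose mRNA has an upstream open reading frame of its own that responds to arginine, had 63.9, 60.2 and 64.0 scaled RPKM in the transgene strain, against 43.3, 46.4 and 43.6 scaled RPKM in *cpc-1Δ*. The large subunit *arg-3* differed by 0.31 and *arg-2* by 0.49, the smallest differences among the genes of the list that passed. *arg-13*, which encodes a mitochondrial carrier of basic amino acids, had a difference of −0.23 and *arg-15* one of 0.85, and neither passed. *arg-15* was listed at 0, 7.78 and 1.24 scaled RPKM in *cpc-1Δ*.

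Of the 9 genes of aromatic amino acid synthesis, 6 were higher and none was lower. The 3 isozymes of the first enzyme of the pathway are encoded by *aro-6*, *aro-7* and *aro-8*, which are known for feedback inhibition by tyrosine, phenylalanine and tryptophan. *aro-8* (NCU02785) had 81.0, 72.4 and 86.1 scaled RPKM in the transgene strain, against 31.8, 34.6 and 30.2 scaled RPKM in *cpc-1Δ* (difference, 1.28). *aro-6* (NCU05548) had 55.4, 64.6 and 53.1 scaled RPKM in the transgene strain, against 44.5, 4.61 and 45.1 scaled RPKM in *cpc-1Δ*. Its groups did not overlap, but 1 *cpc-1Δ* library stood apart from the other 2 and the gene did not pass (difference, 1.36; adjusted *P* = 0.23). The multifunctional arom protein gene *aro-1* differed by 0.98 and the chorismate synthase gene *aro-3* by 0.94. In the tryptophan branch, *trp-2*, for a subunit of anthranilate synthase, differed by 0.89, and *trp-1* by 0.31. *trp-4* (NCU04411) was listed at 0 in all 6 libraries of the 2 strains and at 54.0, 60.4 and 56.0 scaled RPKM in WT. Its annotated span overlaps a neighboring gene, and these values of 0 do not show that the mRNA was missing.

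All 10 genes of threonine and branched-chain synthesis passed, 9 of them higher. *hom-1* (NCU00554), which encodes homoserine dehydrogenase, had 100.01, 95.3 and 100.2 scaled RPKM in the transgene strain, against 38.8, 44.4 and 44.1 scaled RPKM in *cpc-1Δ* (difference, 1.20). *thr-4* differed by 1.16 and *thr-5* by 1.15, and the acetohydroxyacid reductoisomerase gene *ilv-2* had the smallest difference among the 9, at 0.44. The leucine branch was divided. *leu-1*, for isopropylmalate dehydrogenase, and *leu-4*, for isopropylmalate synthase, were higher by 0.93 and 0.70. *leu-2* (NCU04385), for isopropylmalate isomerase, the step between these, had 29.4, 27.1 and 28.9 scaled RPKM in the transgene strain, against 38.1, 36.1 and 35 scaled RPKM in *cpc-1Δ*. Its difference of −0.34 (adjusted *P* = 0.0021) was −0.13 as deposited and did not pass there.

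The lysine list had 2 genes higher and 1 lower among 4, beside 16.8% and 12% of all genes. *lys-5* (NCU05526) had 272, 268 and 264 scaled RPKM in the transgene strain, against 110, 114 and 117 scaled RPKM in *cpc-1Δ* (difference, 1.23). *lys-6* (NCU08898) had 13.4, 12.8 and 13.9 scaled RPKM in the transgene strain, against 18, 19.97 and 19.4 scaled RPKM in *cpc-1Δ*, a difference of −0.49 that also passed as deposited, and WT had a mean of 13.4 scaled RPKM. Of the 7 genes of serine, glycine, proline and asparagine synthesis, 2 were higher and none was lower, beside the same shares of all genes. These were *ser-7* (difference, 1.497) and *for*, which encodes serine hydroxymethyltransferase (difference, 0.90).

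**Figure D4:**
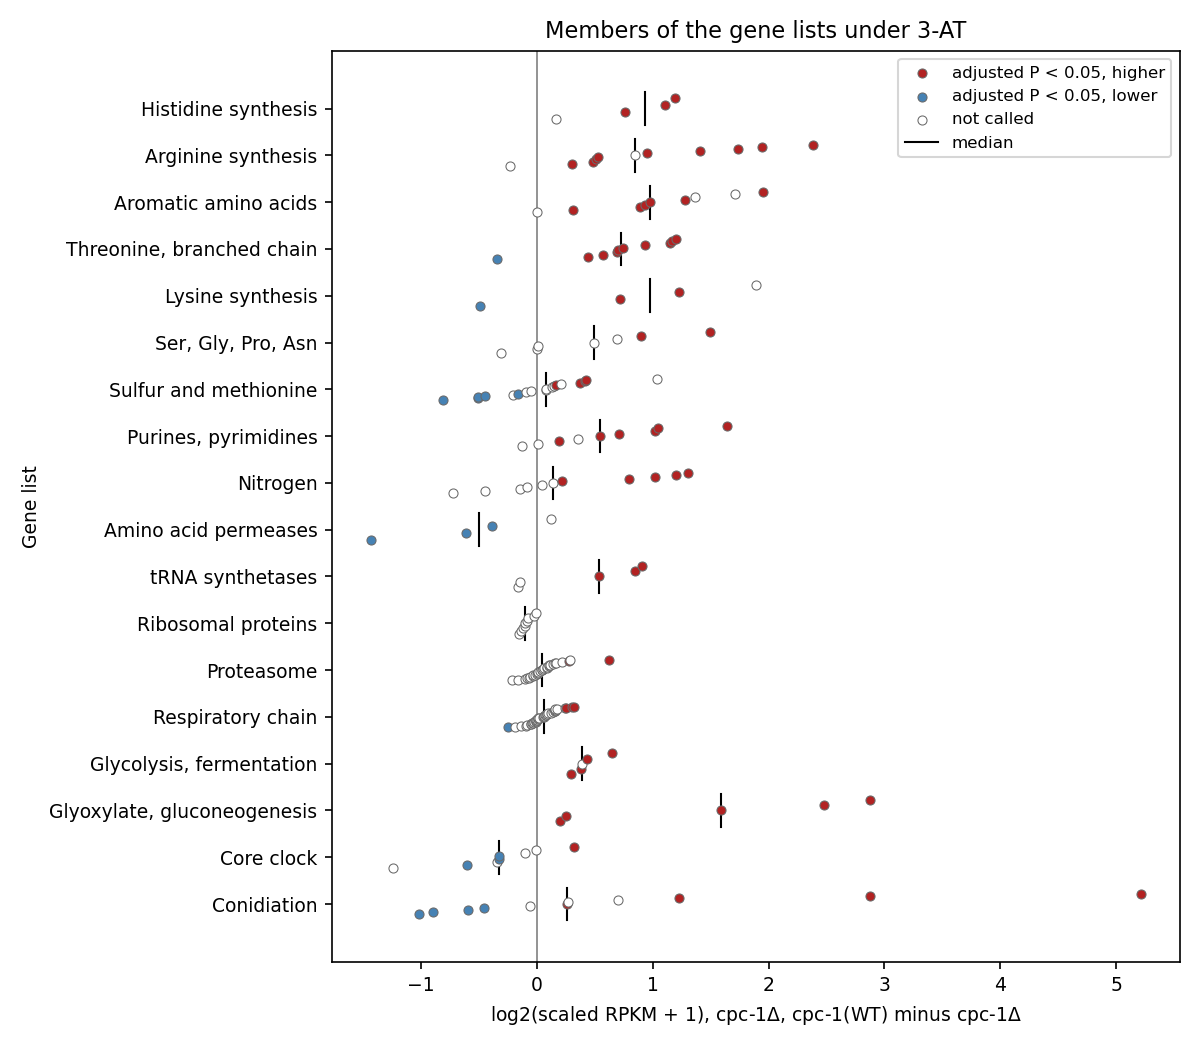
Difference of mean log2(scaled RPKM + 1) between the transgene strain and *cpc-1Δ* with 3-AT for each gene of 18 lists (points, genes; red and blue, higher and lower at an adjusted *P* under 0.05; white, not past it; black lines, medians of the lists). The points of the amino acid synthesis lists lie mostly to the right of 0, with medians of 0.93 for histidine and 0.85 for arginine, while those of the proteasome and the respiratory chain lie around 0, with medians of 0.04 and 0.06, and those of the permeases mostly to its left, with a median of −0.50.

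Genes of sulfur uptake and of methionine and cysteine synthesis did not share a direction. Of 18, 4 were higher and 5 lower, beside 16.8% and 12% of all genes, with a median of 0.08. *eth-1*, which encodes S-adenosylmethionine synthetase, and *met-5*, for homoserine acetyltransferase, were higher by 0.41 and 0.42. *cys-14* (NCU04433), which encodes a sulfate permease, had 34.0, 35.8 and 35.8 scaled RPKM in the transgene strain, against 63.1, 60.4 and 63.3 scaled RPKM in *cpc-1Δ*. Its activator *cys-3* (NCU03536), the bZIP regulator of sulfur acquisition, had 63.2, 59.2 and 64.2 scaled RPKM in the transgene strain, against 91.3, 89.8 and 86.2 scaled RPKM in *cpc-1Δ*. The differences of −0.81 and −0.51 passed, as did those as deposited (−0.60 and −0.30). The methionine synthase gene *met-8* was lower by 0.45 on the log2 scale and by 0.24 as deposited.

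Of 4 amino acid permease genes, 3 were lower and none was higher, beside 12% and 16.8% of all genes. *mtr* (NCU06619), the permease for neutral aliphatic and aromatic amino acids, had 186, 193 and 182 scaled RPKM in the transgene strain, against 282, 281 and 294 scaled RPKM in *cpc-1Δ* (difference, −0.61; adjusted *P* = 3.4e-05). *pmg* (NCU03509), the general permease, had 2.28, 3.03 and 3.25 scaled RPKM in the transgene strain, against 8.75, 10.2 and 9.14 scaled RPKM in *cpc-1Δ* (difference, −1.43). *pmb*, for basic amino acids, differed by −0.39 and did not pass as deposited (adjusted *P* = 0.070). WT had 112 scaled RPKM of *mtr* and 2.03 of *pmg*, below both strains for *mtr* and near the transgene strain for *pmg*.

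Of the 5 aminoacyl-tRNA synthetase genes with a symbol, 3 were higher in the transgene strain, namely *leu-6*, *trp-5* and *cyt-20*, for leucyl-, tryptophanyl- and valyl-tRNA synthetases (differences of 0.91, 0.85 and 0.54). Of all genes, 16.8% were higher. With upper-quartile scaling, 3 of the 5 were higher and 1 lower. None of the 9 cytosolic ribosomal protein genes passed in either direction after scaling (median, −0.10) or as deposited (median, 0.12), while 4 were lower with upper-quartile scaling. The translation factor genes *tef-1*, for elongation factor 1-alpha, and *eif5A* were higher by 0.21 and 0.41, and *tef-1* did not pass with upper-quartile scaling (adjusted *P* = 0.053).

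Outside amino acid synthesis, genes of nitrate assimilation were higher in the transgene strain. The nitrate reductase gene *nit-3* (NCU05298) had 110, 105 and 107 scaled RPKM in the transgene strain, against 44.6, 39.7 and 44.9 scaled RPKM in *cpc-1Δ* (difference, 1.30). The nitrite reductase gene *nit-6* (NCU04720) had 621, 585 and 606 scaled RPKM in the transgene strain, against 267, 256 and 262 scaled RPKM in *cpc-1Δ* (difference, 1.20). The nitrate transporter gene *nit-10* differed by 1.02, the glutamine synthetase gene *gln-1* by 0.80 and the glutamate dehydrogenase gene *am* by 0.22. This makes 5 higher and none lower among 11 genes, beside 16.8% and 12% of all genes. With upper-quartile scaling, *am* did not pass (adjusted *P* = 0.093), and 4 genes were higher and 1 lower. The regulators of this pathway did not pass, with differences of −0.09 for the GATA factor gene *nit-2*, 0.04 for *nit-4* and −0.72 for *nmr*.

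Of 9 genes of purine and pyrimidine synthesis, 6 were higher and none was lower (median, 0.55), beside 16.8% and 12% of all genes. With upper-quartile scaling, 5 of the 9 were higher and 1 lower. The largest differences were those of *gua-3* (NCU02325), with 150, 137 and 159 scaled RPKM in the transgene strain, against 45.4, 49.7 and 45.4 scaled RPKM in *cpc-1Δ* (difference, 1.64), and of *ad-4*, for adenylosuccinate lyase (difference, 1.05). Vitamin synthesis genes gave 8 higher and none lower of 13 (6 higher and 1 lower with upper-quartile scaling), among them *pdx-3* (1.40) and *nic-4* (1.32). The pyridoxine genes *pdx-1* and *pdx-2* are next to each other in the genome. *pdx-1* (NCU06550) had 478, 366 and 533 scaled RPKM in the transgene strain, against 0, 0 and 144 scaled RPKM in *cpc-1Δ*. *pdx-2* (NCU06549) was at 0, 0 and 0 in the transgene strain, against 19.5, 18.2 and 0 scaled RPKM in *cpc-1Δ*. Each of these 6 libraries thus lists the one gene above 0 and the other at 0, in WT both were above 0, and the difference of *pdx-1* (6.43; standard error, 1.77) is not read as a fold. The call of *pdx-1* was lost without *cpc-1Δ* library 1 or 2 and without any transgene library (adjusted *P* = 0.069 to 0.094 in limma).

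Carbon metabolism held some of the largest differences among genes with a symbol. All 5 genes of the glyoxylate cycle and gluconeogenesis were higher in the transgene strain, beside 16.8% of all genes. *acu-6* (NCU09873), which encodes phosphoenolpyruvate carboxykinase, had 22.7, 22.7 and 23.4 scaled RPKM in the transgene strain, against 2.66, 1.91 and 2.24 scaled RPKM in *cpc-1Δ* (difference, 2.88; adjusted *P* = 2.3e-07). The malate synthase gene *acu-9* (NCU10007) had 59.7, 54.1 and 58.8 scaled RPKM in the transgene strain, against 10.2, 9.61 and 8.68 scaled RPKM in *cpc-1Δ*. The isocitrate lyase gene *acu-3* (NCU04230) had 47.1, 45.1 and 46.8 scaled RPKM in the transgene strain, against 14, 16.3 and 14.1 scaled RPKM in *cpc-1Δ*. The levels in WT were 576 scaled RPKM of *acu-6*, 254 of *acu-9* and 525 of *acu-3*, so that the transgene strain remained far below WT for these 3 genes. *acu-5* and *acu-8* differed by 0.20 and 0.25 and did not pass with upper-quartile scaling, under which 3 of the 5 passed. Without *cpc-1Δ* library 1, *acu-5* had an adjusted *P* of 0.056 in limma, and *acu-8* lost its call without any 1 library other than transgene library 2 (adjusted *P* = 0.066 to 0.090).

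In glycolysis and alcohol fermentation, 4 of 5 genes were higher, beside 16.8% of all genes. *fba*, for fructose-bisphosphate aldolase, differed by 0.64 and *cfp*, for pyruvate decarboxylase, by 0.43. *aod-1* (NCU07953), the alternative oxidase of the mitochondrion, had 23.6, 24.0 and 22.4 scaled RPKM in the transgene strain, against 6.24, 5.67 and 6.04 scaled RPKM in *cpc-1Δ* (difference, 1.80). Of 6 catalase and superoxide dismutase genes, 2 were higher and 1 lower, in each of the 3 scalings. Beside 16.8% and 12% of all genes after scaling, no direction is read from so few genes. The catalase gene *cat-3* differed by 1.25, the superoxide dismutase gene *sod-1* by 0.45 and *cat-4* by −0.46. For large complexes the direction rested on the scaling. Of 30 proteasome genes, 2 were higher after scaling and 21 as deposited, beside 16.8% and 29.4% of all genes. Of 39 respiratory chain genes, 3 were higher and 1 lower after scaling, beside 16.8% and 12% of all genes. As deposited, 24 were higher and none lower, beside 29.4% and 4.51% of all genes. With upper-quartile scaling, 1 proteasome gene was higher and 1 lower, and 3 respiratory chain genes were lower and none higher. In that scaling, 13.3% of all genes were higher and 17.6% lower. No change of either complex is therefore given.

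Among 8 core clock genes, 3 were lower and 1 higher in the transgene strain, beside 12% and 16.8% of all genes. *frq* (NCU02265), which encodes the negative element of the circadian oscillator, had 22.4, 25.0 and 24.3 scaled RPKM in the transgene strain, against 38.3, 36.1 and 36.2 scaled RPKM in *cpc-1Δ* (difference, −0.60; adjusted *P* = 0.00023). The groups did not overlap, and the difference as deposited, −0.40, also passed. *wc-2*, a subunit of the White Collar complex, and *frh*, the partner helicase of FRQ, were lower by 0.33 and 0.32 on the log2 scale, and neither passed as deposited. *prd-4*, a checkpoint kinase, was higher by 0.32 but did not pass with upper-quartile scaling, nor with any 1 library other than transgene library 2 left out (adjusted *P* = 0.050 to 0.087 for *prd-4* in limma). The cultures were kept in constant light, in which the clock does not run, so that these are levels and say nothing of rhythms.

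The samples are mycelia, and 6 of 7 conidiation and pigment genes taken as markers of other developmental stages were in the table. Their summed level was 651 to 678 scaled RPKM in the transgene strain, 74.1 to 136 scaled RPKM in *cpc-1Δ* and 3052 to 3205 scaled RPKM in WT. In the transgene strain and WT, most of it was the hydrophobin gene *eas* (NCU08457). In *cpc-1Δ*, most of it came from the other markers. *eas* had 554, 590 and 561 scaled RPKM in the transgene strain, against 0, 61.0 and 57.0 scaled RPKM in *cpc-1Δ*. Without *eas*, the sums were 87.2 to 97.1 scaled RPKM in the transgene strain and 74.1 to 78.3 scaled RPKM in *cpc-1Δ*. The other markers moved in different directions. *con-8* was higher (difference, 1.23), *con-10* and *fl*, the regulator of conidiophore budding, were lower (−0.90 and −0.60), *al-1* differed by 0.02, and *con-13* was below 1 scaled RPKM in every library. The call of *eas* was lost without any 1 transgene library (adjusted *P* = 0.078 to 0.079 in limma), and that of *con-10* without *cpc-1Δ* library 1 or 3 or transgene library 1 or 2 (adjusted *P* = 0.060 to 0.066). The part of development in the other results was not tested, and in these bulk samples fewer cells of a type cannot be told apart from less RNA per cell.

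Of the genes that passed, averaged at least 10 scaled RPKM and had no overlap between the groups, 1066 were higher and 572 lower. These are 12.3% and 6.58% of all genes tested, and their balance was not counted under the other scalings. Most of those with the largest differences have no symbol. NCU08390 had 1229, 1365 and 1248 scaled RPKM in the transgene strain, against 59.2, 53.3 and 62.7 scaled RPKM in *cpc-1Δ* (difference, 4.43; standard error, 0.08). WT had 1327, 1252 and 1185 scaled RPKM of it, so that the libraries of the transgene strain and WT overlapped after scaling. As deposited, these libraries did not overlap, with 1507, 1688 and 1550 RPKM in the transgene strain and 977, 959 and 928 RPKM in WT. NCU11356 had 80.7, 95.9 and 87.0 scaled RPKM in the transgene strain, against 4.29, 4.34 and 4.57 scaled RPKM in *cpc-1Δ*, with 1321 scaled RPKM in WT. NCU06301 had 269, 297 and 221 scaled RPKM in the transgene strain, against 15.1, 14.3 and 15.1 scaled RPKM in *cpc-1Δ*, with 1424 scaled RPKM in WT. Genes with a similar fold between the 2 strains thus stood at very different parts of their WT levels. NCU07034 was at 16.1 to 20.9 scaled RPKM in the transgene strain and at 0, 3.95 and 0 scaled RPKM in *cpc-1Δ*.

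Among the genes that were lower, NCU07232 had 5.14, 3.39 and 4.53 scaled RPKM in the transgene strain, against 62.3, 62.0 and 61.5 scaled RPKM in *cpc-1Δ* (difference, −3.57; standard error, 0.11), and a mean of 5.48 scaled RPKM in WT. *tcu-1* (NCU00830), which encodes a copper transporter, had 2.65, 3.80 and 2.96 scaled RPKM in the transgene strain, against 31.4, 22.2 and 29.5 scaled RPKM in *cpc-1Δ* (difference, −2.79). NCU00829, the gene next to *tcu-1* in the NC12 table, had 4.01, 3.07 and 3.99 scaled RPKM in the transgene strain, against 33.4, 33.6 and 35 scaled RPKM in *cpc-1Δ*. The means in WT were 4.62 scaled RPKM of *tcu-1* and 5.11 of NCU00829, and both genes were thus high in *cpc-1Δ* alone of these 3 strains. NCU08051, NCU00995 and NCU02543 differed by −2.20, −2.11 and −2.06. *ccg-13*, chosen with the genes that have a symbol after values were seen, had 211, 151 and 224 scaled RPKM in the transgene strain, against 752, 740 and 751 scaled RPKM in *cpc-1Δ*, and a mean of 28.3 scaled RPKM in WT. *lacc* (NCU04528), which encodes a laccase and was chosen in the same way, moved away from WT, with 805, 746 and 814 scaled RPKM in the transgene strain, against 78.3, 80.5 and 77.4 scaled RPKM in *cpc-1Δ* and a mean of 2.80 scaled RPKM in WT.

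A further set of extreme genes was listed at 0 in all libraries of one strain. Of the genes that passed, 10 were at 0 in the 3 libraries of the transgene strain with a mean of at least 10 scaled RPKM in *cpc-1Δ*, and 7 were at 0 in the 3 *cpc-1Δ* libraries with a mean of at least 10 scaled RPKM in the transgene strain. The annotated spans of 15 of these 17 genes, *csr-1* and NCU00727 included, overlap another gene, against 1884 (21.7%) of all genes tested. Among them were NCU04039 and NCU07931, with means of 40.9 and 30.4 scaled RPKM in the transgene strain, and NCU09512, NCU06659 and NCU11402, with means of 54.4, 35.7 and 28.8 scaled RPKM in *cpc-1Δ*. NCU10046, which overlaps no gene, had 37.3 to 40.05 scaled RPKM in the transgene strain, was at 0 in *cpc-1Δ* and was also at 0 in 1 of the 3 WT libraries, and it did not pass with any of the 6 libraries left out (adjusted *P* = 0.060 to 0.062 for NCU10046 in limma). No fold is given for these genes, and a listed 0 does not show that the mRNA was missing.

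The difference between the transgene strain and *cpc-1Δ* was set against that between *cpc-1Δ* and WT without 3-AT. The latter was measured in other libraries (2% glucose medium, 2 libraries against 3), so that the 2 comparisons share none. Below, higher or lower with the transgene means in the transgene strain, which also lacks *csr-1*. Without 3-AT, 1771 genes (19.8%) were lower and 1711 (19.1%) higher in *cpc-1Δ* than in WT, of 8959 tested. Of the genes tested in both comparisons, 1761 were lower in *cpc-1Δ* without 3-AT. Of these, 738 (41.9%) were higher in the transgene strain than in *cpc-1Δ* with 3-AT and 119 (6.76%) lower, beside 16.9% and 12.1% of the 8603 genes in both. Of the 1665 genes that were higher in *cpc-1Δ* without 3-AT, 178 (10.7%) were higher and 460 (27.6%) lower with the transgene. Genes with no call without 3-AT gave 10.4% higher and 8.87% lower. Where the deletion had lowered a gene by at least 1 on the log2 scale (526 genes), 54.0% were higher with the transgene and the median difference was 0.56. Where it had lowered a gene by at least 2 on this scale (161 genes), the share was 47.2%, so that it did not go on increasing with the size of the effect. In 0.1% glucose medium, 46.9% of genes differed between *cpc-1Δ* and WT and 25.1% were lower in *cpc-1Δ*. Genes lower in *cpc-1Δ* in both media (860 genes) gave 50.1% higher and 4.88% lower. With the values of both comparisons as deposited, 65.9% of 628 genes lower in *cpc-1Δ* were higher with the transgene, beside 29.7% of all genes. For the 4145 genes that were higher in *cpc-1Δ* in this processing, 6.80% were lower with the transgene, beside 4.52% of all, and 29.0% were higher.

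**Figure D5:**
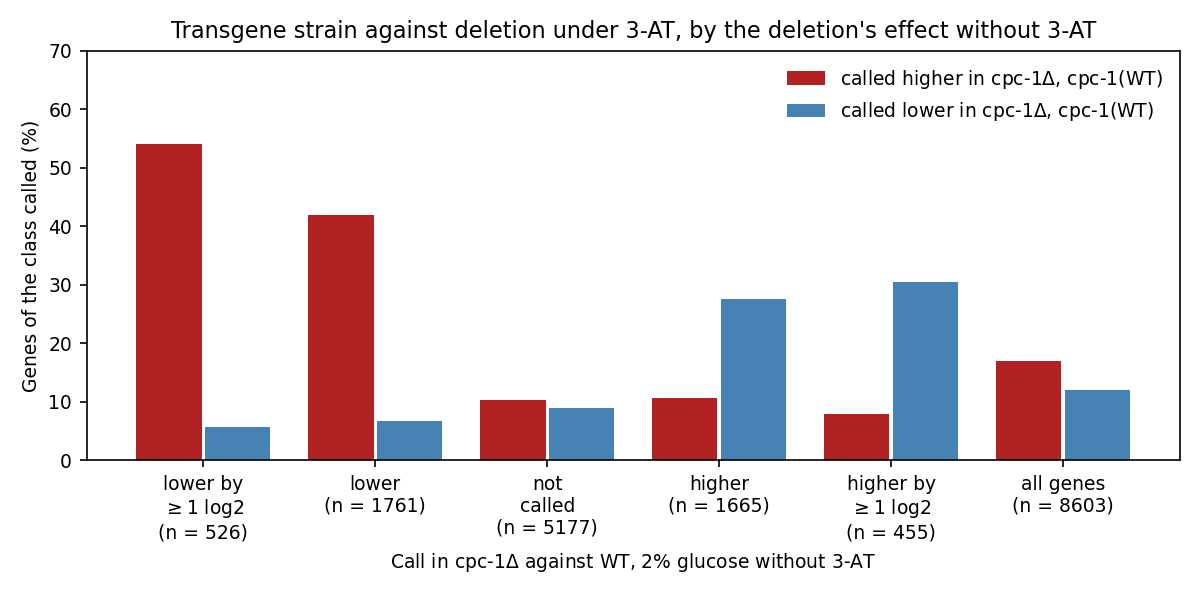
Percentage of genes higher and lower in the transgene strain than in *cpc-1Δ* with 3-AT (adjusted *P* under 0.05), for genes sorted by the difference between *cpc-1Δ* and WT without 3-AT (x axis, classes with their number of genes; y axis, percent of the class; red, higher; blue, lower). Bars for genes higher with the transgene reach 54.0% for genes lower in *cpc-1Δ* by at least 1 on the log2 scale and 7.91% for genes higher by at least 1, and bars for genes lower with the transgene reach 30.5% in this last class.

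Genes that respond to 3-AT in WT were sorted in the same way (WT with 3-AT against none, which uses other libraries than those of the 2 strains, although the WT libraries with 3-AT enter the scaling and the error of the fit of the transgene). Of 1851 genes that were higher with 3-AT in WT, 36.6% were higher with the transgene and 13% lower, and of 1561 that were lower with 3-AT in WT, 14.9% were higher and 17.7% lower. In WT, 20.8% of genes were higher and 17.5% lower with 3-AT. Among the classes compared, the highest share was that of the 670 genes that were lower in *cpc-1Δ* without 3-AT and also higher with 3-AT in WT, with 62.5% higher and 5.67% lower. Genes that were lower in *cpc-1Δ* and not higher with 3-AT in WT (1091 genes) gave 29.2% and 7.42%.

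The mean of WT with 3-AT shows how far the transgene strain moved. Of the 1456 genes higher in the transgene strain than in *cpc-1Δ*, WT was at or above the transgene strain for 829 (56.9%), between the strains for 304 (20.9%) and at or below *cpc-1Δ* for 323 (22.2%). Of the 1041 genes that were lower, WT was at or below the transgene strain for 519 (49.9%), between the strains for 281 (27.0%) and at or above *cpc-1Δ* for 241 (23.2%). These counts are a description, as the genes were chosen with the libraries of the same 2 strains. They were made after scaling only, and the position of WT depends on it.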

How the data were processed

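The deposited values are RPKM per annotated transcript, computed by the authors, in 1 table per library. Their processing notes name TopHat2 and Cufflinks. The genome build and annotation are not given in the sources used here. RPKM was summed over the transcripts of each gene, entries with a remark in the identifier (7) and genes without a number in any library (124) were left out, and genes at 0 in all 9 libraries with 3-AT were not tested. No counts were available, so that the depth is unknown and neither counting intervals nor floors were computed. The 50 smallest products of RPKM and gene length (kb) had a median of 0.0475 to 0.0601 in the transgene strain and of 0.0395 to 0.0580 in *cpc-1Δ*, so that the size of a read step was similar. An isolated 0 beside values of 5 RPKM or more was found in 338 genes.

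After median-ratio scaling, log2(RPKM + 1) was fitted in limma 3.58.1 (R 4.3.3) with a coefficient for each group, in a model of the 9 libraries with 3-AT and a separate fit of the 12 libraries that include neither strain's 3-AT libraries. The procedure was tested on simulated data. Python 3.11.15 with SciPy 1.17.1, NumPy 2.4.6, pandas 2.3.3 and matplotlib 3.10.9 served for tables and figures. Symbols came from an NC12 table (1118 of 9730 genes). The files of the transgene strain carry the heading GCN4WT, and the label was followed. The libraries, the gene lists and the named genes were chosen with earlier results of these data known. Named genes were those of the construct with neighbors, the panel, the histidine and arginine lists, up to 2 genes per list and direction, and the 10 highest and 10 lowest that passed, had a mean of at least 10 scaled RPKM and did not overlap. Other members of described lists, the 10 extreme genes per direction with a symbol and *lacc* were added after values were seen. Promoter and protein sequences were not analysed here.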

Additional observations from a re-analysis of the deposited data

How the results depend on the processing

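Without scaling, 2556 genes were higher and 392 lower in the transgene strain (2948 in all), and 176 genes that the deletion raised without 3-AT were lower with the transgene. The signs of *hH4-2* (0.0091), *β-tubulin* (0.18), *cys-2* (0.051), *cpc-2* (0.0674), *rib-4* (0.18) and *vma-16* (0.0197) turned as deposited. These values follow from a shift of all genes by the scaling. The other alternatives, namely upper-quartile scaling (2680 genes), a pseudocount of 0.1 (2368), a minimum of 1 RPKM throughout a group (2645), only the 6 libraries (2531), a mean-dependent prior variance (2497) and missing numbers read as 0 (2475), kept the counts within 1.5 times their values, as did 2 added after seeing the data, which left out genes with an isolated 0 (2555) or with an overlapping neighbor (1943). Leaving out each library in turn gave 1930 to 2243 genes, 1182 to 1349 higher and 748 to 894 lower. It gave 31 to 34 amino acid synthesis genes higher, 9 in the panel, 627 to 705 and 336 to 412 genes reversed from the effect of the deletion, and a *cpc-1* difference of 4.19 to 4.30. For *cpc-1Δ* against WT without 3-AT, the count was 4846 as deposited and 2815 to 3166 with a library left out, against 3482. The difference of *cpc-1* lay between 4.19 and 4.75 under all alternatives.

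In a fit with a replicate block, 2173 genes passed, 1306 higher and 867 lower, and 3175 for *cpc-1Δ* against WT without 3-AT. Deviations of same-numbered libraries had correlations of −0.06, −0.05 and 0.08 across 4246 genes, and not every library correlated best with its own number. Transgene library 1 with *cpc-1Δ* library 2, and transgene library 2 with *cpc-1Δ* library 1, had 0.096. Deviations from means of 3 libraries depend on each other, so that these values cannot show whether libraries shared a culture batch.

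Depth is unknown, each group has 2 or 3 libraries, and exact tests of 3 against 3 cannot fall below 0.10. Lists hold only genes with a symbol.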
